A study of Homo sapiens with 8 samples.

Results

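The DEAD and DEAH box RNA helicases are enzymes that use ATP to unwind or remodel RNA and RNA-protein complexes. The genes were chosen by symbol, DDX or DHX followed by a number and, for DDX, at most 1 further letter, without the chromosome Y member and without pseudogenes. In this way 47 of the 9339 genes in the authors' deposited table were members, 32 with a DDX symbol (mostly DEAD box) and 15 with a DHX symbol (mostly DEAH box). The study grew THP-1, a human monocytic acute leukaemia cell line, with ALKBH5 knocked down (A5-KD in the labels) or as control, and made libraries of ribosome footprints ("ribo") and of input RNA from each. The 4 groups, A5-KD ribo, A5-KD input, control ribo and control input, held 2 libraries each, and the labels do not say how the knockdown was made or whether replicates were separate cultures. For control input the genotype is labelled "input" alone, so that group rests on its titles. The quantity reported is the log2 fold change of translational efficiency, the footprint abundance of a gene relative to its RNA abundance, between the 2 conditions. Which condition is on top of the ratio is not stated, so a positive or negative sign below is the deposited sign and does not say whether the knockdown was higher or lower.

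DEAD and DEAH box proteins share a helicase core that binds RNA and ATP, and partner proteins decide where and when the core acts. DEAD box members open short duplexes and clamp on RNA, while DEAH box members move along a strand and pull on it. Between them they serve most steps in the life of an RNA: transcription, splicing, export through the nuclear pore, ribosome assembly, translation, decay and the sensing of viral RNA. ALKBH5 removes the methyl group from N6-methyladenosine, and 2 members have been reported as its partners in other work: DDX3X binds it, and DDX46 recruits it to antiviral transcripts.

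No member was called. An adjusted p (riborex with its DESeq2 engine) was given for 3 members, DDX41, DDX39A and DDX5, in the authors' deposited table, and 0 of these 3 were under 0.05, against 1.54% of the 648 genes that carried one. At an unadjusted p under 0.05, 0 of 47 members passed, against 0.707% of the 9339 genes, and the smallest unadjusted p among the members was 0.183. Other settings left the count at 0: with the adjustment over all genes (0.075% of genes called), after centring (1.08%), with mean signal minimums of 20 (0.201%) and 50 (0.395%), and with each statistic divided by the spread among genes of similar signal (2.39%). Dividing every statistic by its spread over all genes called 1 member, DDX41, and 3.82% of genes. The table held 0 columns of values per library, so levels in single libraries were not analysed here, and the errors are the authors' standard errors. It also holds a mean signal per gene, which pools footprints and input over all 8 libraries and serves here as a guide to precision, not as an expression level.

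Most member values were small, and their standard errors were wide where mean signal was low. Of the 47 log2 fold changes in the authors' deposited table, 19 were negative and 28 positive, a negative share of 40.4%, against 51.9% of all genes. That difference in share was not tested. The median was 0.05 (quartiles -0.21 and 0.26), a ratio of 1.03, against -0.02 over all genes, a ratio of 0.987. The 32 DDX genes had a median of 0.07, with 11 negative. The 15 DHX genes had a median of -0.03, with 8 negative. The difference between the 2 medians was not tested. The median standard error of a single member was 1.27. Absolute log2 fold changes were under 0.5 in 37 members and over 1 in 2, DHX58 and DHX16, both with a mean signal under 5.

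**Figure D1:**
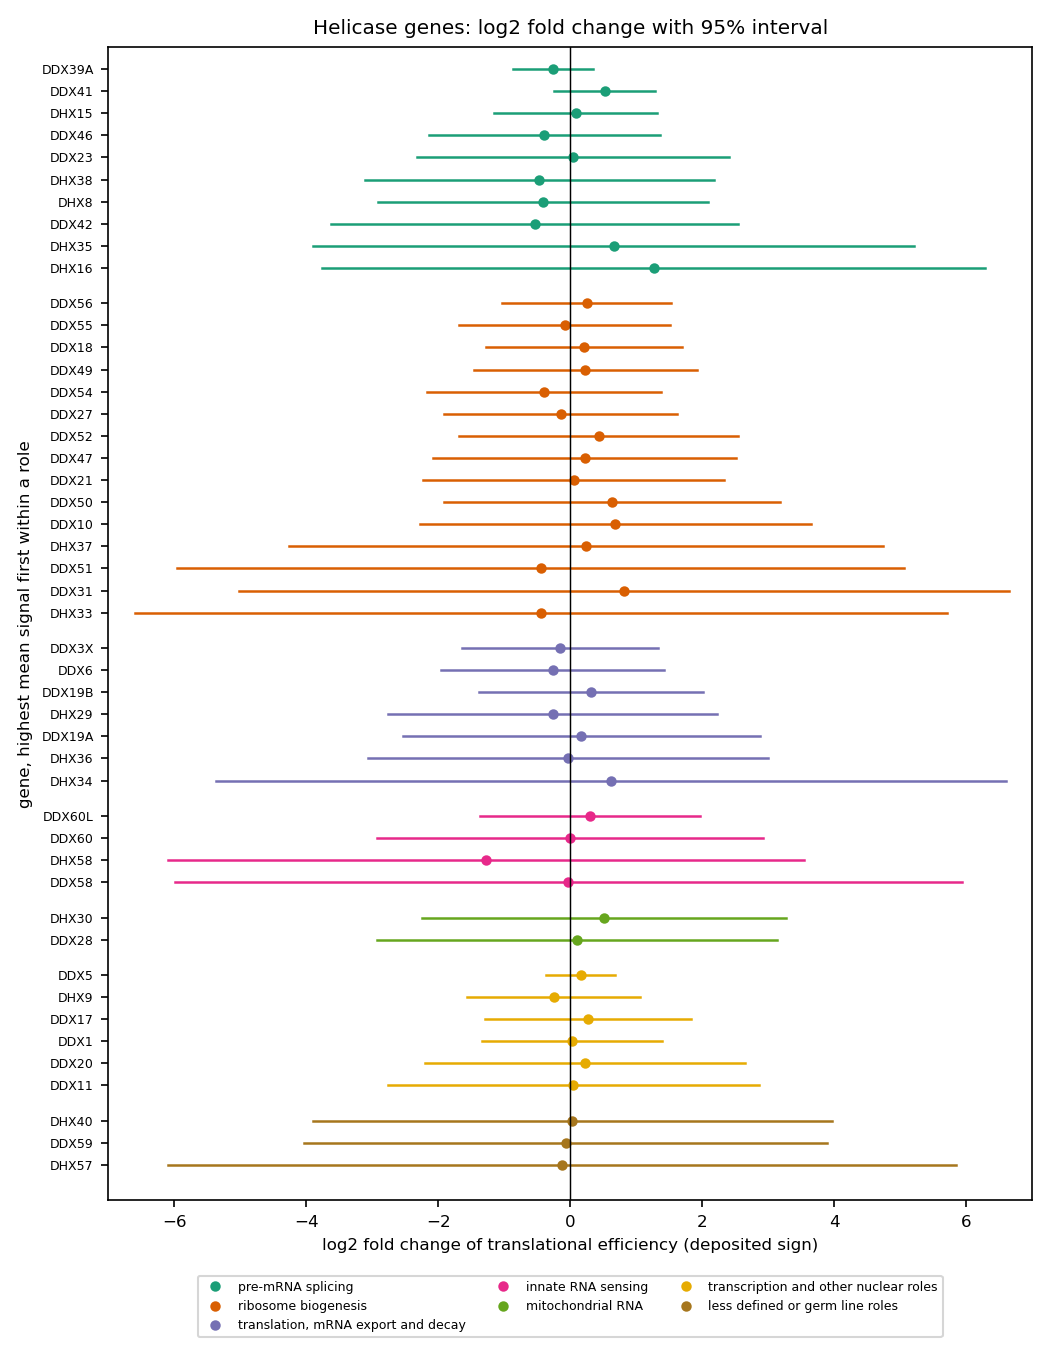
Log2 fold change of translational efficiency (x axis, deposited sign) of the 47 helicase genes, grouped by role in colour and ordered by mean signal within a role. Points are the authors' values and lines the 95% intervals computed from the authors' standard errors. All 47 intervals hold 0, and they mostly widen from the top to the bottom of each role.

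Precision followed mean signal. The mean signal of the members had a median of 14.8, from 1.91 for DHX34 to 335.4 for DDX5 in the authors' deposited table, against a median of 11.9 over all genes. Standard errors ran from 0.267 for DDX5 to 3.14 for DHX33. A 2-fold estimate (1 on the log2 scale) would have reached an unadjusted p of 0.05 in 3 members, DDX5, DDX39A and DDX41. A 4-fold estimate would have done so in 18, and in the remaining 29 it would not have with the deposited errors. A true difference of either size can yield a smaller estimate, so these counts are not rates of detection. The 95% interval excluded a 2-fold difference in both directions in 2 members, DDX5 and DDX39A, and a 4-fold difference in 15. The DHX genes carried less signal, with a median of 6.86 and 7 of 15 under 5, than the DDX genes, with a median of 21.0 and 3 of 32 under 5. A 2-fold estimate would have passed in 0 of the 15 DHX genes.

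**Figure D2:**
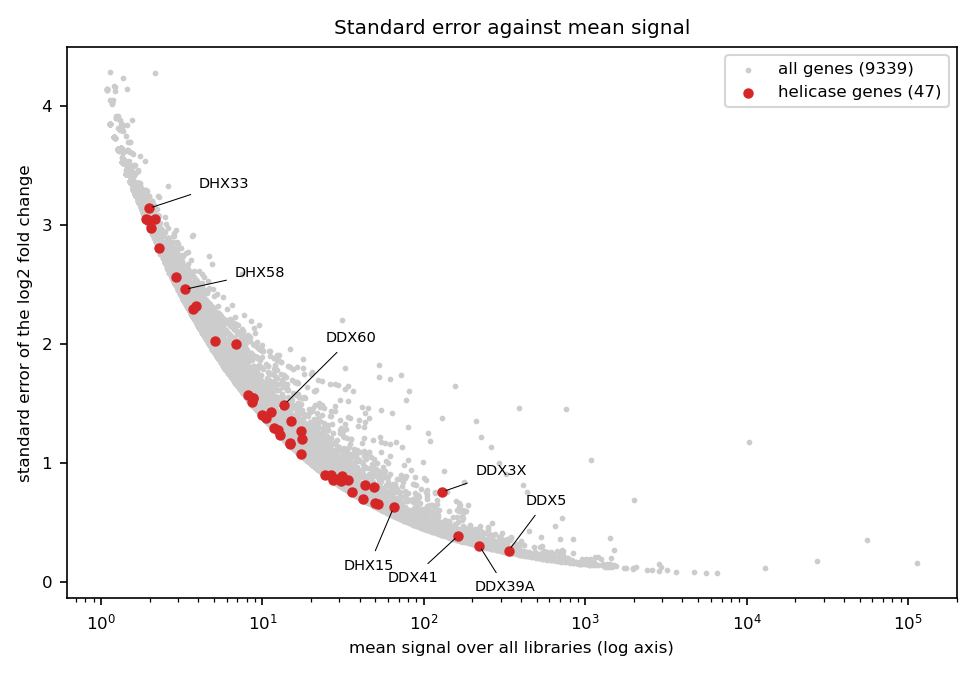
Standard error of the log2 fold change (y axis) against the mean signal over all libraries (x axis, log scale), both from the authors' deposited table, for all 9339 genes in grey and the 47 helicase genes in red. Most members lie along the dense band of genes, and DDX3X lies above it.

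Splicing helicases drive the spliceosome through its rearrangements and then take it apart. Of 10 measured, 5 had a negative and 5 a positive value, and the median was -0.11. An adjusted p was given for 2 of them, and 0 of these 2 were called, against 1.54% of the 648 genes that carried one. DDX41 acts in the spliceosome and in sensing DNA, and is a gene of inherited and acquired mutations in myeloid leukaemia (chromosome 5, 177511577 to 177516961, GRCh38.p14). Its log2 fold change in the authors' deposited table was 0.52 ± 0.39 (SE; mean signal 163.2), the smallest p of any member (unadjusted p = 0.183, adjusted p = 0.953). The ratio between conditions was 1.43, with a 95% interval from 0.843 to 2.44 computed from the deposited error. That value lay above 0 by less than 2 standard errors. Its absolute log2 fold change was larger than in 90.5% of the 200 genes nearest to it in mean signal.

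DDX39A, an export and splicing helicase closely related to UAP56, stood on the other side of 0 (chromosome 19, 14408798 to 14419383). The authors' deposited table gave it -0.27 ± 0.31 (mean signal 220.2; unadjusted p = 0.391, adjusted p = 0.999), and its 95% interval ran from -0.87 to 0.34. DDX46, which remodels the U2 snRNP early in spliceosome assembly and is a reported partner of ALKBH5, had -0.39 ± 0.89 in the authors' deposited table (mean signal 31.2; unadjusted p = 0.662). The interval of DDX46 ran from -2.14 to 1.36, so neither a 2-fold difference up nor one down was excluded.

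Of the remaining splicing helicases DHX15 had the narrowest error. DHX15, which releases the intron lariat and also works on pre-ribosomes, had 0.08 ± 0.63 (mean signal 65.1) in the authors' deposited table, the most signal of any DHX gene. DDX23, which helps to exchange U1 for U6 at the 5' splice site, had 0.05 in the authors' deposited table. The catalytic step helicase DHX38 had -0.47, DHX8, which releases the spliced mRNA, -0.41, and DDX42, which associates with the U2 snRNP, -0.54. DHX16, which activates the spliceosome for the first step, had 1.27 ± 2.56 at a mean signal of 2.91 (unadjusted p = 0.621) in the authors' deposited table, and DHX35 had 0.66 ± 2.32. The intervals of these 2 positive values span from below -3 to above 5 on the log2 scale, so they carry almost no information on direction.

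Ribosome biogenesis was the role with the most members. These are nucleolar helicases, most with yeast counterparts, that remodel pre-rRNA while it is folded and cut, and release snoRNAs from it. Of 15 measured, 5 had a negative and 10 a positive value. The median was 0.22 (a ratio of 1.16), and the median standard error was 1.16. None of the 15 carried an adjusted p, so none could be called. The best measured was DDX56, a large-subunit factor, at 0.25 ± 0.65 in the authors' deposited table. Among other large-subunit factors DDX18 had 0.21 ± 0.76, DDX55 -0.08 ± 0.82, DDX27 -0.14 ± 0.90 and DDX54 -0.40 ± 0.90 in the authors' deposited table. DDX54 had the third smallest p of the negative members (unadjusted p = 0.659; mean signal 26.6; 95% interval from -2.17 to 1.37). DDX31 had 0.81 and DDX51 -0.44 in the authors' deposited table, both with mean signals under 5.

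Among helicases of the small subunit, DDX49 had 0.23, DDX47 0.22, DDX52 0.43 and DDX10 0.69 in the authors' deposited table, all 4 positive and each smaller than its standard error. DHX37, which frees the U3 snoRNA from the pre-ribosome, had 0.24. DDX21, which couples transcription by RNA polymerase I to rRNA processing, had 0.05 ± 1.16 in the authors' deposited table, and its close relative DDX50, next to it on chromosome 10, 0.63 ± 1.30. DHX33, which supports rRNA transcription, had -0.44 ± 3.14, the widest error of any member.

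Helicases of translation, mRNA export and decay act on the mRNA itself. The values here describe the translational efficiency of their own mRNAs, not what the proteins do to other mRNAs. Of 7 measured, 4 had a negative and 3 a positive value, and the median was -0.03. None of the 7 carried an adjusted p, so none could be called. DDX3X, which promotes initiation on mRNAs with structured leaders, is on chromosome X (41333308 to 41364472). The authors' deposited table gave it -0.16 ± 0.76 (unadjusted p = 0.834; no adjusted p), with a 95% interval from -1.65 to 1.33. That error was wide for its mean signal of 129.6: it exceeded the standard error of 98.0% of the 200 genes nearest in signal, whose median was 0.424. No other member stood so high among its neighbours. DDX3X has a close copy on chromosome Y and 3 annotated pseudogenes, and the sources used here do not say how shared reads were counted. Their part in the wide error was not tested.

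DHX29, which binds the small ribosomal subunit and helps it scan structured leaders, had -0.27 ± 1.27 in the authors' deposited table. DDX6, which represses translation and promotes decapping in P-bodies, had -0.27 ± 0.86. DHX36, which unwinds G-quadruplexes, had -0.03 ± 1.55, and DHX34, a factor of nonsense-mediated decay, 0.62 ± 3.05 in the authors' deposited table. The neighbours DDX19A and DDX19B on chromosome 16 release export factors from mRNA at the nuclear pore, and stood at 0.17 ± 1.38 and 0.31 ± 0.87 in the authors' deposited table. Both were positive and lay within 1 standard error of 0.

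The nuclear helicases with roles in transcription and other processes had more signal than the other roles, with a median of 45.8 over 6 members. Of these, 1 was negative and 5 positive, with a median of 0.10. Only DDX5 carried an adjusted p, and it was not called. DDX5, a coregulator of transcription and splicing (chromosome 17, 64498254 to 64506866), had 0.16 ± 0.27 in the authors' deposited table, the narrowest error of any member (mean signal 335.4; unadjusted p = 0.558, adjusted p = 0.999). Its interval ran from -0.37 to 0.68, a ratio between 0.775 and 1.60. The span of DDX5 holds the microRNA genes MIR3064 and MIR5047 and overlaps the coding gene CEP95, and the sources used here do not say whether counting used strand. Its close relative DDX17 had 0.27 ± 0.80 in the authors' deposited table, on the same side of 0.

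DHX9, which resolves double-stranded RNA and R-loops, had -0.25 ± 0.67, the 1 negative value of the group, in the authors' deposited table. DDX1, part of the tRNA ligase complex, had 0.03 ± 0.70. DDX20, a member of the SMN complex that assembles snRNPs, had 0.22 ± 1.24, and DDX11, a DNA helicase of sister chromatid cohesion, 0.05 ± 1.43 in the authors' deposited table. DDX11 has 8 annotated pseudogenes named for it, the most of any member.

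The smaller roles gave values that could not be told from 0. Of the innate RNA sensing genes, DDX58, which encodes the viral RNA sensor RIG-I (current symbol RIGI), had -0.03 ± 3.04 (mean signal 1.95) in the authors' deposited table. DHX58, which encodes the RIG-I relative LGP2, had -1.28 ± 2.46 at a mean signal of 3.30 (unadjusted p = 0.603), the lowest log2 fold change of any member, with a 95% interval from -6.10 to 3.54. The interferon-induced neighbours DDX60 and DDX60L on chromosome 4 had 0.00 ± 1.49 and 0.30 ± 0.85 in the authors' deposited table. DHX30 and DDX28, which support assembly of the mitochondrial ribosome, had 0.51 ± 1.41 and 0.10 ± 1.55. DHX40, DDX59, mutated in a ciliopathy, and DHX57 had 0.03, -0.07 and -0.12 in the authors' deposited table, with standard errors above 2.

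The bulk of the members' test statistics lay near 0, like that of all genes, and none was far out. The Wald statistic, the fold change over its standard error, ran from -0.859 for DDX39A to 1.33 for DDX41 in the authors' deposited table, against -6.85 to 3.79 over all genes. Its robust spread (scaled median absolute deviation) was 0.346 over the 47 members, against 0.280 over all genes. A spread near 1 would follow if the errors matched the scatter and nothing changed. The spread rose with mean signal. Over all genes it was 0.425 at a minimum of 20 and 0.689 at 100. Among members it was 0.418 (18 genes) and 1.07 (4 genes). The deposited p-values of the members had a median of 0.789, against 0.851 over all genes.

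**Figure D3:**
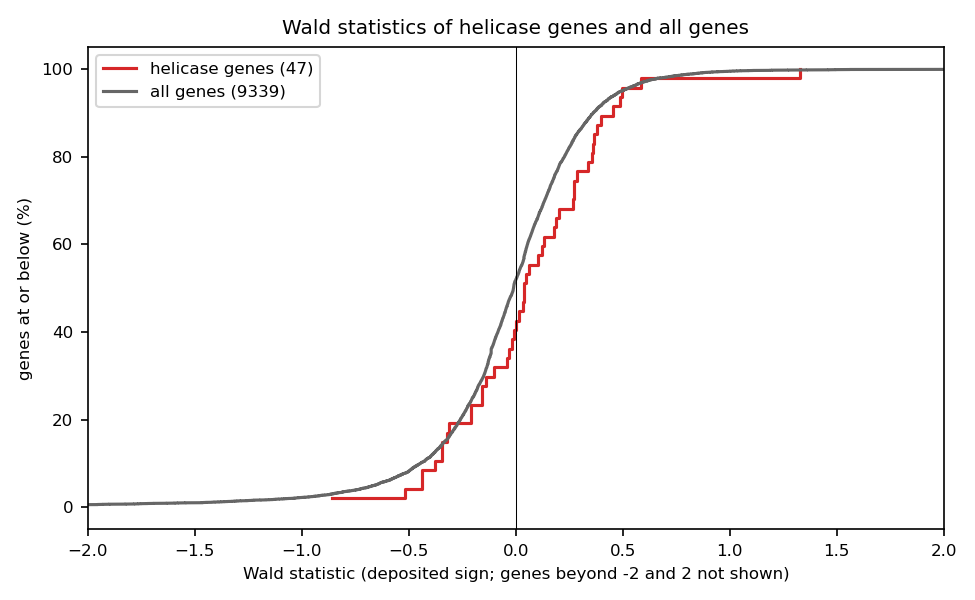
Share of genes (y axis, percent) with a Wald statistic at or below the value on the x axis (deposited sign), for the 47 helicase genes in red and all 9339 genes in grey. The members run from -0.859 to 1.33, and their curve lies to the right of that of all genes over most of the range.

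The related helicases outside the symbol rule and the partners of the helicases also held 0 calls, but few of them could be called. An adjusted p was given for 1 of the 12 related helicases measured and for 3 of the 46 partners measured. Of the 648 genes that carried one, 1.54% were called. Of 14 related helicases, 12 were measured, 9 negative and 3 positive, with a median of -0.11. At an unadjusted p under 0.05, 0 of the 12 passed, against 0.707% of the 9339 genes. EIF4A1, the DEAD box helicase of the cap-binding complex, had 0.04 ± 0.21 in the authors' deposited table (mean signal 516.8; adjusted p = 0.999), with an interval from -0.37 to 0.46, narrower than that of any member. Its paralogue EIF4A2 had -0.39 ± 0.47 (unadjusted p = 0.407), and EIF4A3, the core of the exon junction complex, -0.15 ± 0.41 in the authors' deposited table. AQR, a helicase of the spliceosome, had -0.70 ± 1.86 at a mean signal of 6.19.

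Of 49 partners and cofactors, 46 were measured, 24 negative and 22 positive, with a median of -0.03. At an unadjusted p under 0.05, 0 of the 46 passed, against 0.707% of the 9339 genes. EIF4H, which stimulates EIF4A, had the smallest p of the list, at 0.46 ± 0.30 in the authors' deposited table (unadjusted p = 0.121, adjusted p = 0.824). MAGOH and RBM8A, the heterodimer that locks EIF4A3 onto mRNA, had -0.43 ± 0.40 (unadjusted p = 0.276) and -0.16 ± 0.28 (adjusted p = 0.999) in the authors' deposited table. ALYREF, the export adaptor that works with the DDX39 helicases, had 0.18 ± 0.44 (adjusted p = 0.999), and FAM98B, of the tRNA ligase complex with DDX1, -1.39 ± 1.52 (unadjusted p = 0.360) in the authors' deposited table.

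**Figure D4:**
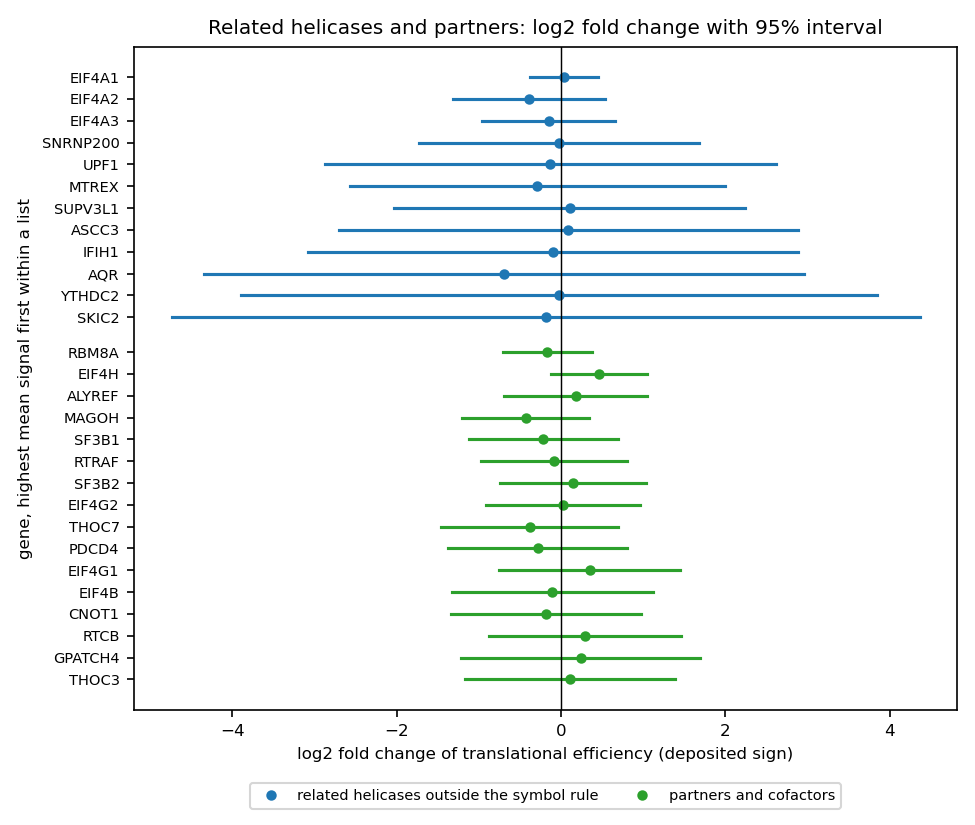
Log2 fold change of translational efficiency (x axis, deposited sign) of the 12 related helicases and of the 16 partners at or above 50 in mean signal, in order of mean signal within each list. Points are the authors' values and lines 95% intervals from the authors' standard errors. EIF4A1 has the narrowest interval, and every interval shown holds 0.

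For the series as a whole, the knocked-down gene ALKBH5 had, in the authors' deposited table, a mean signal of 4.85 and no adjusted p, and how far the knockdown went was not analysed here. Of 15 monocytic leukaemia line markers, 13 were measured, 8 of them at a mean signal of at least 100 (FCGR2A, LYZ, FCER1G, LAPTM5, CTSG, CD68, TYROBP and AZU1) and 5 below it (SPI1, CD33, CEBPA, CSF1R and ITGAM, from 41.4 down to 4.55), while CD14 and MPO were not analysed here. FCGR2A was the 1 marker called, of 6 with an adjusted p, against 1.54% of the 648 genes that carried one. Its log2 fold change was -0.80 ± 0.17 (adjusted p = 4.0e-04 by riborex with its DESeq2 engine, in the authors' deposited table). The marker of next smallest p, LYZ, had -0.41 ± 0.13 (adjusted p = 0.084 by the same test) and was not called. The mean signal of FCGR2A, 112772, was the highest of all genes, against 2942 for LYZ, and the reason was not tested. Of 13 lymphoid, erythroid and epithelial markers 2 were measured, KRT8 and NKG7, at 4.33 and 15.2. Library depths were not analysed here.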

How the data were processed

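Footprints and input RNA of THP-1 cells were measured, 2 libraries in each of 4 groups. Tools named in the submitters' processing notes are kallisto, HISAT2 2.1.0 and CASAVA, with the build hg38, and no roles. Per the file headers the deposited table is a riborex result with the DESeq2 engine. The deposited mean signal is, by the authors' tool's convention, an average over all libraries after division by size factors. The log2 fold change, its standard error, the Wald statistic (a score), the p-value and the adjusted p-value are the authors' values per the file headers. Their relations were checked, and adjustment was by Benjamini-Hochberg over the 648 genes at or above 155.3 in mean signal. Depth per library is unknown, so no counting interval was made. Calls need an adjusted p under 0.05, and 95% intervals are normal.

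Of the members, 46 matched a RefSeq symbol (GRCh38.p14) directly and 1 through an older name; another 7 coding symbols were not analysed here. Members and lists were chosen with earlier results of these data known. Every member is named, with full statistics for those with an adjusted p or a mean signal of at least 100, the 3 smallest p per sign, DDX3X and DDX46. From the lists of related helicases and of partners, genes with an adjusted p, the EIF4A genes and up to 3 of smallest p are given. Marker signals are described only and, as pooled values, do not test the identity of the cells. Steps (Python 3.11.15, pandas 2.3.3, NumPy 2.4.6, SciPy 1.17.1) were tested on simulated data. The simulation drew its noise from the deposited standard errors, so it cannot say whether those errors, or the rescaling, suit these data. Alternatives were the genes adjusted over, centring, rescaling of the statistic and signal minimums.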

Additional observations from a re-analysis of the deposited data

How the results depend on the processing

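The count of called helicase genes was 0 with the adjustment over all 9339 genes, with fold changes centred on the median of all genes, with mean signal minimums of 20 (18 members tested) and 50 (6 members tested), and with statistics divided by their spread among the 200 genes nearest in signal. It was 1 with statistics divided by the spread over all genes, 0.280, a setting that called 3.82% of all genes. The gene was DDX41 (adjusted p = 1.3e-04), whose adjusted p ran from 0.327 to 1.00 under the other alternatives; the spread among its 200 neighbours in signal was 0.557. Under the signal minimums, centring, and without the 12 members that have named pseudogenes, the median of the members ran from 0.05 to 0.12. Their negative share ran from 33.3% to 44.4%. The share over all genes also moved with signal. It was 54.5% of 3478 genes at a minimum of 20, against 8 of 18 members (44.4%). At a minimum of 50 it was 60.4% of 1774 genes, against 2 of 6 members (33.3%). The difference in negative share between members and all genes was not tested. No paired analysis was possible because the table holds no values per library, and for the same reason no replicate could be left out. With the deposited errors a 4-fold estimate would not have reached an unadjusted p of 0.05 in 29 of 47 members. Dividing the statistics by 0.280 assumes narrower errors and would lower that limit, and whether the deposited errors are too large was not tested.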
